A study of Mus musculus with 8 samples.

Results

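The genes described here are Nfe2l2, which encodes the transcription factor NRF2, and 9 genes that NRF2 is known to switch on, namely Hmox1, Nqo1, Gclm, Gclc, Slc7a11, Srxn1, Txnrd1, Prdx1 and Sqstm1. They were chosen by name, and every probe of the deposited array table that carries such a symbol was taken, which gave 15 of 25697 probes for 10 of 18138 gene symbols. Of these, 13 probes with at least 1 for each gene passed the filter on dim probes and were tested among 13868 probes for 10163 symbols. The filter kept probes detected on 2 or more of the 8 arrays. A probe counts as detected where its detection p-value, the fraction of the array's negative controls that outshone it, is under 0.05. Of the 13 probes, 12 were detected on all 8 arrays and the Gclc probe was detected on 6. The second probes of Nfe2l2 and Nqo1 were detected on 0 arrays and are not considered further.

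RNA came from bone marrow-derived macrophages of female mice aged 8 weeks, all labelled as strain C57bl/6J. Bone marrow cells of wild-type (WT) mice and of iNOS-/- mice were cultured for 7 days with GM-CSF, a growth factor for myeloid cells, at 10 ng/ml. iNOS is the inducible nitric oxide synthase, the enzyme with which activated macrophages make nitric oxide. The study asked what the loss of this enzyme does to M1 activation. The WT unstimulated and iNOS-/- unstimulated groups received nothing further, while the WT M1 and iNOS-/- M1 groups received LPS, a bacterial cell wall component, at 200 ng/ml plus IFN-γ at 10 ng/ml for 6 h. Each group was measured on 2 arrays. The knockout is germline and not restricted to macrophages, and the labels do not tell whether both arrays of a group stem from different mice, so the p-values measure the spread between arrays, which may be technical. The study's methods list the iNOS-/- mice as a separate stock from the WT mice, with a strain name that adds another strain to B6. The genotypes may therefore differ in more than the gene for iNOS, which was not tested.

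Mean intensity per array lay between 155 and 225, and 11833 to 12673 probes were detected. Intensities were scaled to each other over probes of stable rank and are given as log2 values, on which a difference of 1 is a 2-fold change. The typical probe (the median over probes) differed by 0.16 to 0.19 on this scale between arrays of 1 group and by 0.34 to 0.82 between arrays of different groups. Differences were estimated with limma, the adjusted p-values are adjusted over all tested probes by the method of Benjamini and Hochberg, and a probe is called at an adjusted p under 0.05. A gene with several probes is represented by its brightest probe. Nos2, which encodes iNOS, was not detected on any unstimulated array, and it differed between the M1 groups by 0.37 (standard error 0.32, adjusted p = 0.390), so its probe did not separate the genotypes, whether it lies within the targeted part is not given in the sources used here, and the direction of every genotype comparison rests on the labels. All 8 macrophage markers were detected on every array, and 4 of 4 lymphocyte markers were detected on none. Between the M1 groups 3 of the macrophage markers were called higher and 4 lower in iNOS-/-, and their summed scaled intensity was 31160 to 31240 on the WT unstimulated arrays, 32580 to 35050 in WT M1, 24100 to 25060 in iNOS-/- unstimulated and 37650 to 38410 in iNOS-/- M1. Lyz2 made up the largest part of the macrophage sum, and its intensity before scaling was 16928 to 18752 on all 8 arrays. Between WT M1 and iNOS-/- M1, mean Csf1r went from 11.47 down to 10.23 and mean Cd14 from 11.57 up to 13.06. Other markers moved with the groups as well. The summed scaled intensity of 9 dendritic cell markers was 873 to 884 on the WT unstimulated arrays, 17140 to 17710 in WT M1, 14590 to 15440 in iNOS-/- unstimulated and 38040 to 39900 in iNOS-/- M1, with Flt3 undetected in all groups. Zbtb46 was detected on all 8 arrays but near the background in WT unstimulated (mean 2.85). Its means in WT M1, iNOS-/- unstimulated and iNOS-/- M1 were 5.51, 5.45 and 6.25. The dendritic cell sum was carried by bright genes such as Ccl17 and Il4i1, whereas Cd209a was at 5.02 and 5.34 in WT M1 and iNOS-/- unstimulated and undetected in the other groups. The sum of 9 granulocyte markers was 1343 on both WT unstimulated arrays, 2011 to 2101 in WT M1, 1923 to 1976 in iNOS-/- unstimulated and 7256 to 7717 in iNOS-/- M1, with Mpo undetected in all groups, and within it Mmp8 fell from 7.59 to 5.84 in WT cells (adjusted p = 0.00311). In iNOS-/- M1 most of this sum came from S100a8 and Lcn2, at means of 11.59 and 11.69. The sum of 6 markers of dividing cells was 532 to 604 and 708 to 719 in WT unstimulated and iNOS-/- M1, against 1707 to 1837 and 1960 to 1979 in WT M1 and iNOS-/- unstimulated. The part of these shifts in the results given here was not tested, and in such bulk RNA fewer cells of a type and less RNA per cell cannot be told apart.

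NRF2 is the main transcription factor of the defence against oxidants and electrophiles. In resting cells it is bound by KEAP1, which hands it to a CUL3 ubiquitin ligase for degradation, and when cysteines of KEAP1 are modified, NRF2 builds up, pairs with a small MAF protein and binds antioxidant response elements near its target genes, while BACH1 occupies the same elements as a repressor. The targets make glutathione, reduce quinones and disulphides, break down haem and remove protein aggregates, and macrophages are known to use them when they produce oxidants themselves.

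The core of the antioxidant response element, TGACNNNGC on either strand, was searched in RefSeq promoter windows (GRCm38.p6) that run from 250 bases before to 50 bases after each annotated start. Of the 10 genes, 8 had windows, 10 in all, and 5 of these genes held the core, while it was found in 12.4% of all 32851 windows and for 14.0% of all 27025 genes. Hmox1 and Gclc had no entry. The Nfe2l2, Gclm, Txnrd1 and Prdx1 stretches upstream of the start are shown because these genes differed between the M1 groups in the directions described further on, and capitals mark the core, which reads in reverse complement where it lies on the strand opposite to the gene. Prdx1 carries TGACTCAGC, whose first letters TGACTCA are also those of an AP-1 site. On either strand TGACTCA was found in 5.2% of all windows and for 2 of the 8 genes, Prdx1 and Srxn1.
Nfe2l2, chr2:75704664-75704913, minus strand, core starting 240 bases before the start: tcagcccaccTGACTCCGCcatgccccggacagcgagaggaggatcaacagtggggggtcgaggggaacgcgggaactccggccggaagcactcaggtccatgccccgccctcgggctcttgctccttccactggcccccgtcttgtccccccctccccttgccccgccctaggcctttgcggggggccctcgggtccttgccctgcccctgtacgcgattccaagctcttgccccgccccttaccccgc
Gclm, chr3:122245307-122245556, plus strand, core on the opposite strand, 134 bases before the start: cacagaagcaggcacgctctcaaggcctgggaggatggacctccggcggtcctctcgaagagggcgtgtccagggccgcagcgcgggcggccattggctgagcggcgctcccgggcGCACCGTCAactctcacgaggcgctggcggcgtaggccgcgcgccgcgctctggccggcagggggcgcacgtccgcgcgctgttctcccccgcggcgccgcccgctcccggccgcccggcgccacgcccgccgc
Txnrd1, chr10:82858956-82859205, plus strand, core on the opposite strand, 92 bases before 1 of its 3 annotated starts: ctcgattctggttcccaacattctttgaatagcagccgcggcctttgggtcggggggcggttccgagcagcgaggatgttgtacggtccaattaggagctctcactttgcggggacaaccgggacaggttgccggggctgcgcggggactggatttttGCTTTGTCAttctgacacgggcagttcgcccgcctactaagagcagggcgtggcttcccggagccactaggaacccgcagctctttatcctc
Prdx1, chr4:116685349-116685598, plus strand, core on the opposite strand, 133 bases before the start: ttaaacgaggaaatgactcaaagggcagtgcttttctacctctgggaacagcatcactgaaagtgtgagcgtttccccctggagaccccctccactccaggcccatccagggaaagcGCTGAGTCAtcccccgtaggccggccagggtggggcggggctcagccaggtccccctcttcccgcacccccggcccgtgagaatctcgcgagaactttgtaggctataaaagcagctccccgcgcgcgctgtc
In Srxn1 the core TGACCTAGC lay on the opposite strand within the first bases of the transcript, 28 bases after the start. The windows of Nqo1, Slc7a11 and Sqstm1 did not hold these letters. A match is a run of letters and not a measured binding site.

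Nfe2l2 itself rose in iNOS-/- cells after activation, and its change in WT cells was not called. Its log2 intensity was 8.74 and 8.48 on the WT unstimulated arrays, 8.74 and 8.76 in WT M1, 8.35 and 8.26 in iNOS-/- unstimulated and 9.35 and 9.30 in iNOS-/- M1. Both iNOS-/- M1 arrays lay above the other 6, and both iNOS-/- unstimulated arrays lay below them. The rise in iNOS-/- cells was 1.03 (standard error 0.11, 2.04-fold, adjusted p = 0.00115), and in WT cells the change was 0.14 with a 95% interval of -0.14 to 0.42 (adjusted p = 0.387). The difference between both responses was 0.89 (standard error 0.16, adjusted p = 0.00901). In iNOS-/- M1 cells Nfe2l2 was 1.49-fold higher than in WT M1 cells (0.57, adjusted p = 0.0100), a difference that came to 0.36 after quantile normalization and 0.35 after neqc, a background correction by negative controls followed by quantile normalization. Under these 2 scalings Nfe2l2 rose by 0.76 and 0.73 in iNOS-/- cells, and its difference in response was 0.62 and 0.59, all still called. Between the unstimulated groups it differed by -0.31 (adjusted p = 0.0916), which was called without replicate 2 of WT unstimulated (-0.48, adjusted p = 0.0478), with an intensity trend (adjusted p = 0.0171) and among probes detected on all 8 arrays (adjusted p = 0.0486).

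**Figure D1:**
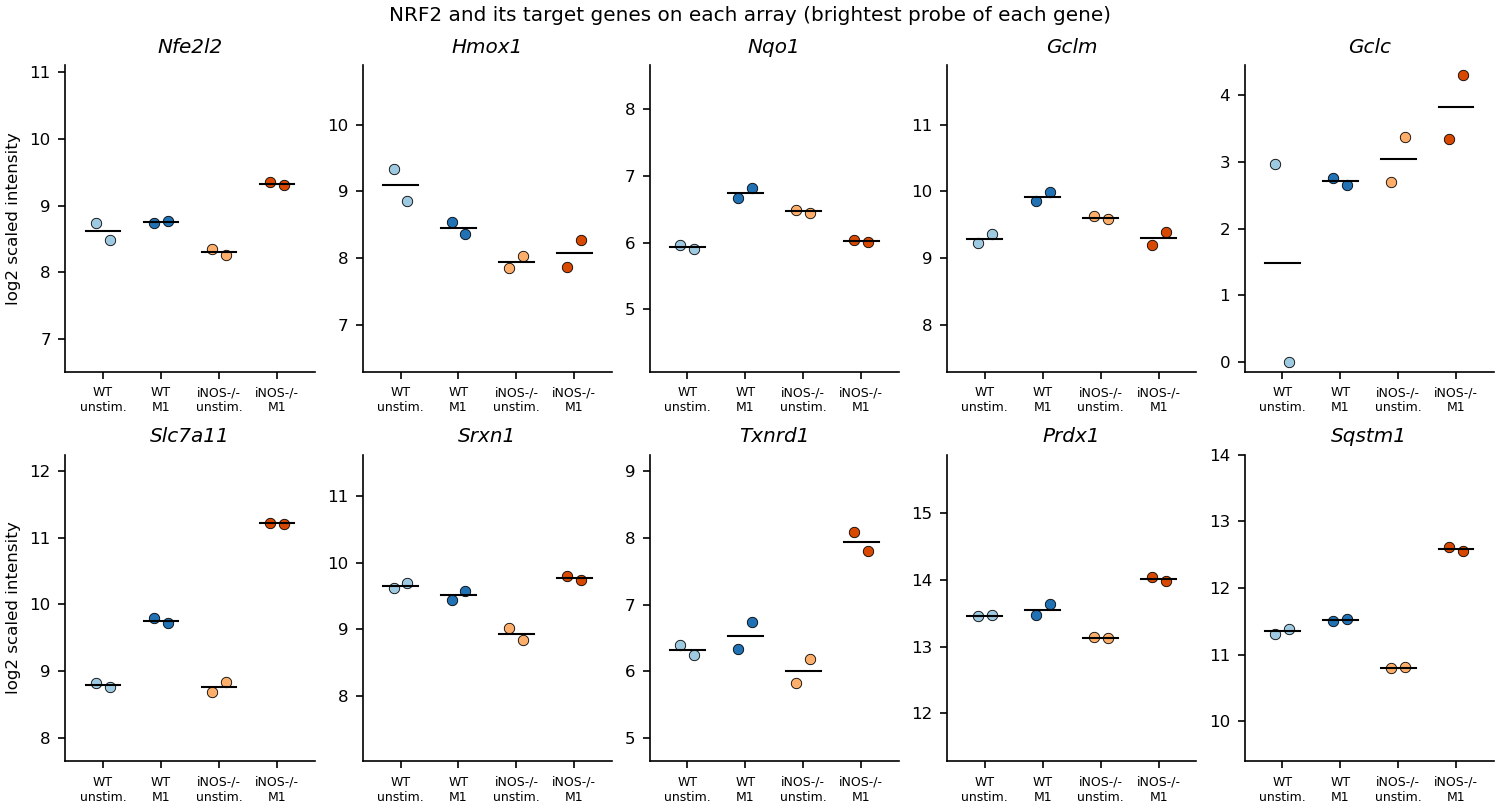
Log2 scaled intensity (vertical axis) of the brightest probe of each gene on each array, by group (horizontal axis). Points are arrays, 2 per group, bars are group means, and every panel spans the same number of log2 units. In 6 panels both iNOS-/- M1 arrays lie above all others, whereas Nqo1 and Gclm are highest in WT M1 and Hmox1 is highest in WT unstimulated.

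Slc7a11 had the steepest rise of the 10 genes after activation in iNOS-/- cells. It encodes xCT, which imports the cystine from which glutathione is made. Its values were 8.81 and 8.76 in WT unstimulated, 9.79 and 9.72 in WT M1, 8.68 and 8.83 in iNOS-/- unstimulated and 11.21 and 11.21 in iNOS-/- M1. The unstimulated groups overlapped and differed by -0.03 (95% interval -0.26 to 0.20). From there Slc7a11 rose 1.96-fold in WT cells (adjusted p = 0.00147) and 5.49-fold in iNOS-/- cells (adjusted p = 4.67e-05), a difference in response of 1.49 (standard error 0.13, adjusted p = 0.00107). It was 2.75-fold higher in iNOS-/- M1 than in WT M1 cells (1.46, standard error 0.09, adjusted p = 0.000308). After quantile normalization and neqc the rise in iNOS-/- cells was 1.98 and 1.94 on the log2 scale, against 2.46 with the main scaling. The difference between the M1 groups was then 1.03 and 1.02 and the difference in response 0.96 and 0.95, all still called.

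Gclm went another way. The enzyme that joins cysteine to glutamate consists of a catalytic subunit, encoded by Gclc, and a modifier subunit, encoded by Gclm. Gclm measured 9.23 and 9.36 in WT unstimulated, 9.86 and 9.99 in WT M1, 9.62 and 9.59 in iNOS-/- unstimulated and 9.20 and 9.39 in iNOS-/- M1. Its highest 2 arrays were those of WT M1, and the iNOS-/- M1 arrays spread around those of WT unstimulated. Gclm rose 1.55-fold in WT cells (0.63, standard error 0.11, adjusted p = 0.0106) and differed by -0.31 after activation in iNOS-/- cells (adjusted p = 0.0666), so that the responses differed by -0.94 (adjusted p = 0.00727). It was 1.54-fold lower in iNOS-/- M1 than in WT M1 cells (adjusted p = 0.00728). After quantile normalization and after neqc the change in iNOS-/- cells was larger and called (-0.68 and -0.67, adjusted p = 0.00399 and 0.000269), and so was the difference between the unstimulated groups (0.49 and 0.48, against 0.32 with adjusted p = 0.0873). The call in WT cells was lost without replicate 1 of WT unstimulated (0.53, adjusted p = 0.0598).

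Gclc lay near the background. Its log2 intensity was 2.97 and 0.00 in WT unstimulated, 2.76 and 2.66 in WT M1, 2.71 and 3.38 in iNOS-/- unstimulated and 3.35 and 4.30 in iNOS-/- M1, and it was not detected on replicate 2 of either WT group. The arrays of WT unstimulated were 2.97 apart, more than any pair of group means. Gclc was called in 0 of the 5 comparisons, and its 95% interval for iNOS-/- M1 against WT M1 ran from -1.38 to 3.60, so that a change of several fold either way was not detectable. Without replicate 1 of WT unstimulated, which leaves that group with the array at the floor alone, its differences from WT unstimulated were called (2.68 for WT M1 and 3.0 for iNOS-/- unstimulated, adjusted p = 0.0279 and 0.0225), and neqc called the difference between the M1 groups (0.44, adjusted p = 0.0457).

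Nqo1 changed in opposite directions in both genotypes. It encodes a quinone reductase that is often used as a readout of NRF2. Its values were 5.96 and 5.91 in WT unstimulated, 6.67 and 6.81 in WT M1, 6.49 and 6.44 in iNOS-/- unstimulated and 6.05 and 6.02 in iNOS-/- M1. No groups overlapped, and the arrays within a group were at most 0.15 apart. Activation raised Nqo1 1.75-fold in WT cells (0.81, standard error 0.09, adjusted p = 0.00245) and lowered it 1.35-fold in iNOS-/- cells (-0.44, adjusted p = 0.0107). The responses differed by -1.25 (standard error 0.13, adjusted p = 0.00161). Nqo1 was 1.45-fold higher in iNOS-/- than in WT cells before activation (adjusted p = 0.00922) and 1.63-fold lower after it (adjusted p = 0.00225). The fall in iNOS-/- cells was not called without replicate 1 of iNOS-/- unstimulated (adjusted p = 0.0504), and the difference between the unstimulated groups was not called without replicate 2 of WT unstimulated (adjusted p = 0.0586). Of the 10 genes, Nqo1 alone had both responses called with opposite signs, as did 8.59% of all tested genes, and Gclm joined it after quantile normalization or neqc, with a floor of 16, with an intensity trend and among probes detected on all 8 arrays.

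Hmox1 was lower in iNOS-/- cells before activation, and its difference after activation was called after neqc alone. It encodes haem oxygenase-1, which breaks down haem into biliverdin, iron and carbon monoxide. Its values were 9.33 and 8.85 in WT unstimulated, 8.54 and 8.37 in WT M1, 7.86 and 8.04 in iNOS-/- unstimulated and 7.87 and 8.27 in iNOS-/- M1. Both WT groups lay above both iNOS-/- groups, and the iNOS-/- groups overlapped. In unstimulated cells Hmox1 was 2.21-fold lower in iNOS-/- (-1.15, standard error 0.22, adjusted p = 0.0142), and this call was lost without replicate 1 (adjusted p = 0.0751) or replicate 2 (adjusted p = 0.0518) of iNOS-/- unstimulated. The other differences were not called, at -0.64 after activation in WT cells (adjusted p = 0.0754), 0.12 in iNOS-/- cells (adjusted p = 0.666) and -0.38 between the M1 groups (95% interval -0.93 to 0.17, adjusted p = 0.203). Without replicate 2 of WT unstimulated, which was the dimmer of that pair, the change in WT cells was called (-0.90, adjusted p = 0.0498), and so was the difference between the responses (1.04, adjusted p = 0.0497, against 0.76 and 0.103 with all arrays). An intensity trend also called both (adjusted p = 0.00569 and 0.0130), as did the fit to probes detected on all 8 arrays (adjusted p = 0.0297 and 0.0475), and neqc called the change in WT cells (-0.62, adjusted p = 0.0121) and the difference between the M1 groups (-0.44, adjusted p = 0.0461).

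Txnrd1, Srxn1 and Prdx1 rose in iNOS-/- cells. Txnrd1, the cytosolic thioredoxin reductase, measured 6.40 and 6.25 in WT unstimulated, 6.33 and 6.74 in WT M1, 5.82 and 6.18 in iNOS-/- unstimulated and 8.09 and 7.81 in iNOS-/- M1. The WT groups overlapped, while both iNOS-/- M1 arrays stood more than 1 log2 unit above all others. Txnrd1 rose 3.85-fold in iNOS-/- cells (adjusted p = 0.00108) against a change of 0.21 in WT cells (95% interval -0.32 to 0.74), a difference in response of 1.73 (standard error 0.30, adjusted p = 0.00781). It was 2.66-fold higher in iNOS-/- M1 than in WT M1 cells (1.41, standard error 0.21, adjusted p = 0.00391).

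Srxn1 encodes sulfiredoxin, which repairs overoxidized peroxiredoxins, and had 3 probes. The brightest, which starts at position 2235 of the transcript, measured 9.62 and 9.69 in WT unstimulated, 9.44 and 9.57 in WT M1, 9.02 and 8.84 in iNOS-/- unstimulated and 9.80 and 9.74 in iNOS-/- M1. The iNOS-/- unstimulated arrays were the lowest on all 3 probes, and the iNOS-/- M1 arrays the highest. On the brightest probe Srxn1 was 1.65-fold lower in iNOS-/- than in WT cells before activation (adjusted p = 0.00541) and rose 1.79-fold in iNOS-/- cells (adjusted p = 0.00167), against -0.15 in WT cells (adjusted p = 0.323). The responses differed by 0.99 (standard error 0.14, adjusted p = 0.00479). After quantile normalization and neqc the rise was 0.49 and 0.47 and the difference in response 0.60 and 0.59, all still called. The probes disagreed on the M1 groups. The brightest gave 0.26 (adjusted p = 0.0860, or 0.0164 with an intensity trend), or -0.02 after quantile normalization or neqc, and those at positions 1016 and 637 gave 0.56 (adjusted p = 0.00785) and 1.10 (adjusted p = 0.0129). The last of these calls was lost without either WT M1 array or without replicate 2 of iNOS-/- M1, with adjusted p between 0.0540 and 0.0572.

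Prdx1, encoding a peroxiredoxin that reduces hydrogen peroxide, had 2 probes. The brighter, at position 824, measured 13.46 and 13.47 in WT unstimulated, 13.47 and 13.64 in WT M1, 13.14 and 13.12 in iNOS-/- unstimulated and 14.04 and 13.98 in iNOS-/- M1. The dimmer, at position 1177, measured 6.16 and 6.39, 5.70 and 5.75, 5.19 and 5.34, and 6.71 and 6.77 in the same order. Both probes were lowest in iNOS-/- unstimulated and highest in iNOS-/- M1, but only the dimmer probe fell in WT cells (-0.56, adjusted p = 0.0171), where the brighter one gave 0.09 (95% interval -0.14 to 0.32). That fall was not called without replicate 2 of WT unstimulated or without either WT M1 array, with adjusted p between 0.0588 and 0.0762. In iNOS-/- cells Prdx1 rose 1.84-fold by the brighter probe (adjusted p = 0.000968) and 2.78-fold by the dimmer one. Between the M1 groups the brighter probe was 1.37-fold higher in iNOS-/- (0.45, adjusted p = 0.0111) and the dimmer 2.03-fold (1.02, adjusted p = 0.00153). The responses differed by 0.79 (adjusted p = 0.00698) and 2.03 (adjusted p = 0.000853). The brighter probe's rise in iNOS-/- cells shrank from 0.88 to 0.29 after quantile normalization as well as after neqc (adjusted p = 0.0368 and 0.0227), and its difference in response to 0.25, no longer called (adjusted p = 0.158 and 0.149). Its difference between the M1 groups was -0.03 under both, and it was not called without replicate 1 of WT M1 (0.36, adjusted p = 0.0502), while the dimmer probe kept 1.11 and 0.90 under those scalings. The brighter probe's difference between the unstimulated groups (-0.33, adjusted p = 0.0445) was lost when any array other than those of WT M1 was left out. It was also not called after quantile normalization (adjusted p = 0.0569), with an intercept (0.0513), on 4 arrays (0.0670) or with the replicate block (0.0788), but was after neqc (0.0355). The dimmer probe differed by -1.01 between these groups (adjusted p = 0.00267).

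**Figure D2:**
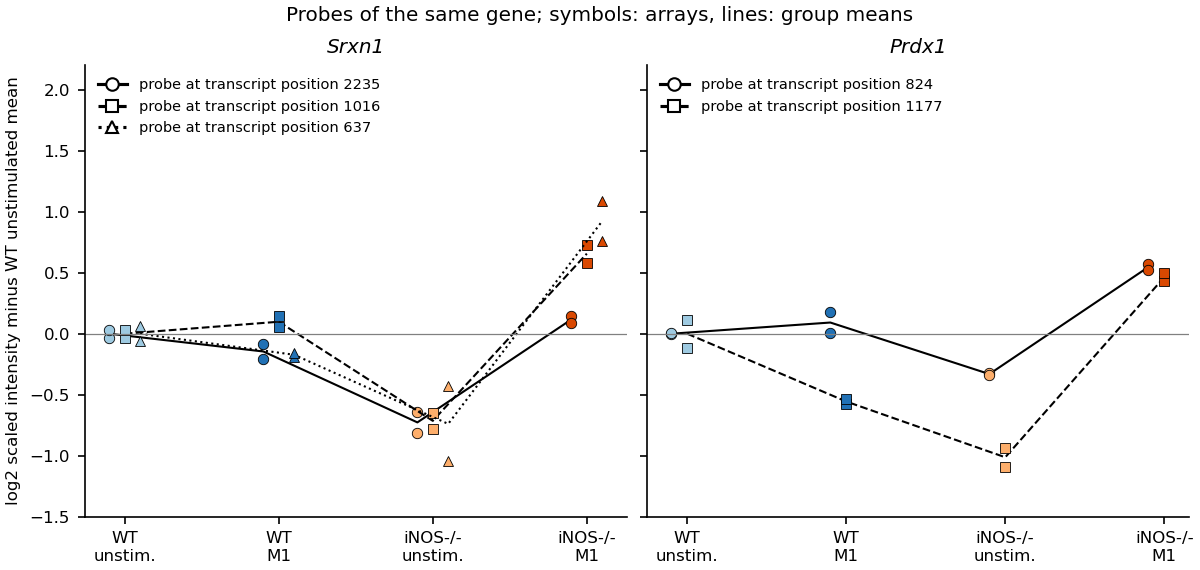
Log2 scaled intensity of each tested probe of Srxn1 (left) and Prdx1 (right) minus that probe's mean in WT unstimulated (vertical axis), by group (horizontal axis). Symbols are arrays and lines join group means. All 5 probes are lowest in iNOS-/- unstimulated and highest in iNOS-/- M1, and the size of the rise differs between probes of a gene.

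Sqstm1 had the smallest scatter of the 10 genes, with arrays of a group at most 0.08 apart. It encodes p62, an autophagy adaptor that also binds KEAP1. Its values were 11.31 and 11.39 in WT unstimulated, 11.51 and 11.54 in WT M1, 10.79 and 10.81 in iNOS-/- unstimulated and 12.61 and 12.55 in iNOS-/- M1. It was thus lowest in unstimulated and highest in activated iNOS-/- cells, with both WT groups between. Sqstm1 was 1.46-fold lower in iNOS-/- than in WT cells before activation (adjusted p = 0.00612) and rose 3.43-fold in iNOS-/- cells (adjusted p = 7.22e-05), against 0.17 in WT cells (95% interval -0.03 to 0.37), a change that passed the threshold when the floor was 16 (adjusted p = 0.0230) or an intensity trend was fitted (adjusted p = 0.0462). After activation it was 2.08-fold higher in iNOS-/- cells (1.06, standard error 0.08, adjusted p = 0.000488), and the responses differed by 1.60 (adjusted p = 0.000625). Quantile normalization and neqc brought the difference between the M1 groups to 0.51 (adjusted p = 0.00621 and 0.000991). They also brought the rise in iNOS-/- cells from 1.78 to 1.10, the difference in response to 0.88 and 0.87 and that between the unstimulated groups from -0.55 to -0.36, all still called.

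In order of group means with the main scaling, iNOS-/- M1 was the highest group for Nfe2l2, Slc7a11, Srxn1, Txnrd1, Prdx1 and Sqstm1. The iNOS-/- unstimulated group was the lowest for the same genes. After quantile normalization and neqc, iNOS-/- M1 no longer lay above WT M1 for Srxn1 (-0.02 under both) and Prdx1 (-0.03 under both). Slc7a11 was then higher in iNOS-/- than in WT unstimulated cells, by 0.08 and 0.07, which was not called. For Nfe2l2, Txnrd1, Prdx1 and Sqstm1 the WT groups were neighbours in the middle and were not called apart. For Slc7a11 the unstimulated groups at the lower end overlapped, and for Srxn1 the upper 3 groups, iNOS-/- M1, WT unstimulated and WT M1, were not called apart from the next one among them, while WT M1 was called above iNOS-/- unstimulated (0.58, adjusted p = 0.0254). For Nqo1 and Gclm the order ran from WT M1 through iNOS-/- unstimulated and iNOS-/- M1 to WT unstimulated, where neither the upper pair (0.27 for Nqo1 and 0.31 for Gclm) nor the lower pair (0.10 and 0.00) was called.

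Over the 10 genes, activation of WT cells raised 3, Nqo1, Gclm and Slc7a11, and lowered 0, while 36.5% of all tested genes were called in that comparison, 20.2% higher and 16.2% lower. Activation of iNOS-/- cells raised 6 and lowered 1, with 51.6% of all genes called, 26.4% higher and 25.2% lower. In iNOS-/- M1 against WT M1 cells, 5 were higher (Nfe2l2, Slc7a11, Txnrd1, Prdx1 and Sqstm1) and 2 lower (Nqo1 and Gclm), with 50.2% of all genes called, 25.5% higher and 24.6% lower. Of the unstimulated groups, iNOS-/- was higher for 1 gene (Nqo1) and lower for 4 (Hmox1, Srxn1, Prdx1 and Sqstm1), with 34.1% called, 17.1% higher and 17.0% lower. The response differed between genotypes for 8 genes, 6 with the larger value in iNOS-/- cells and 2 with the larger in WT cells, with 43.6% of all genes called, 21.7% and 21.9% in either direction. The median difference of the 10 genes was 0.19, 0.86, 0.51, -0.32 and 0.84 in these comparisons, in the order given, and that of all genes was 0.04, 0.04, 0.01, -0.02 and 0.02. After quantile normalization the medians of the 10 genes were 0.18, 0.57, 0.17, -0.27 and 0.61, and after neqc 0.10, 0.38, 0.17, -0.26 and 0.59. With a change of at least 2-fold demanded as well, 0, 4, 3, 1 and 4 of the 10 genes were called, as were 15.2%, 28.8%, 24.8%, 14.5% and 28.4% of all genes. The arrays of the M1 groups did not overlap for 10 of 10 genes, as for 75.8% of all genes, and both iNOS-/- M1 arrays lay above the other 6 for 6 of 10, as for 27.9%. The comparisons share arrays and are not independent of each other.

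**Figure D3:**
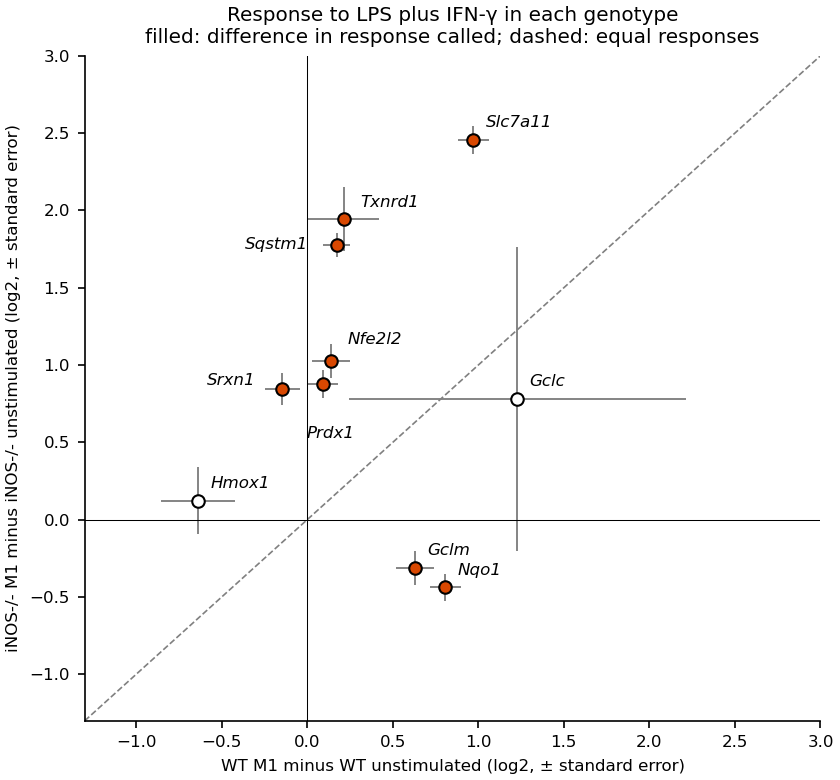
Response to LPS plus IFN-γ in WT cells (horizontal axis) and in iNOS-/- cells (vertical axis), each as the log2 difference of M1 minus unstimulated group means, with bars of 1 standard error from limma. The dashed line marks equal responses and filled points have a called difference in response. Nfe2l2, Slc7a11, Srxn1, Txnrd1, Prdx1 and Sqstm1 lie above the line, Nqo1 and Gclm below it.

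**Figure D4:**
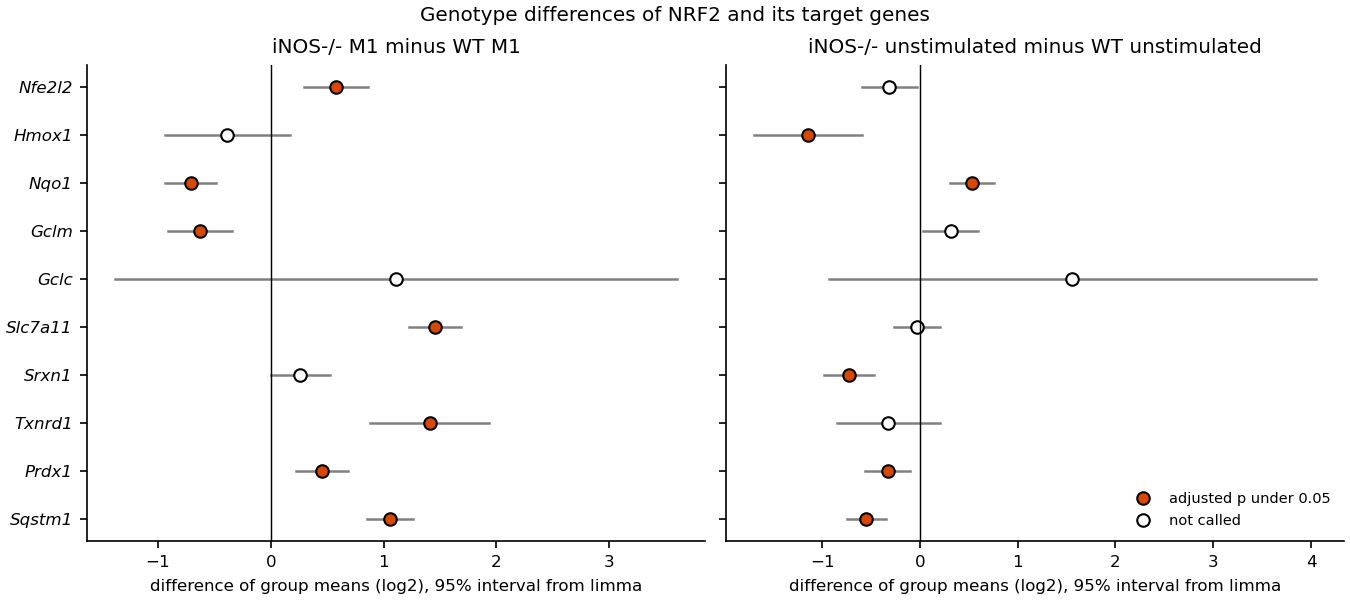
Difference of group means on the log2 scale (horizontal axis), iNOS-/- minus WT, in M1 cells (left) and in unstimulated cells (right), for each gene (vertical axis). Bars are 95% intervals from limma and filled points are called. Of the called points, Slc7a11, Txnrd1 and Sqstm1 lie above 1 in M1 cells, and Hmox1 lies below -1 in unstimulated cells.

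The regulators and partners of NRF2 were examined as a list of 10 genes, each by its brightest probe alone. Keap1 has 4 probes, Btrc 3, and Rbx1 and Maff 2 each, and the dimmer ones were not examined. All 10 genes were tested. In iNOS-/- M1 against WT M1 cells 4 were higher and 2 lower, a share near the 50.2% of all genes called in that comparison. The higher ones were Keap1 (1.26, adjusted p = 0.00119), which holds NRF2 in the cytoplasm, Rbx1 (0.81, adjusted p = 0.00135) and Cul3 (0.64, adjusted p = 0.00427), the other parts of that ubiquitin ligase, and Nfe2l1 (0.43, adjusted p = 0.0158), a factor related to NRF2. Keap1 measured 8.73 and 8.66 in WT unstimulated, 8.70 and 8.86 in WT M1, 8.34 and 8.57 in iNOS-/- unstimulated and 9.94 and 10.14 in iNOS-/- M1, and it rose by 1.58 in iNOS-/- cells against a change of 0.09 in WT cells (difference 1.49, adjusted p = 0.00291). Bach1, the repressor at the same elements, was lower. Its values were 8.60 and 8.41, 8.17 and 8.38, 8.10 and 8.19, and 7.23 and 7.17 in the same order of groups, a difference of -1.07 between the M1 groups (adjusted p = 0.00147). The other lower gene, Bach2, was not detected on any M1 array and has no usable fold change there, and its call was lost after quantile normalization, neqc and the scaling with an intercept. Mafg, Mafk and Maff, the small MAF partners, and Btrc, part of a different ubiquitin ligase for NRF2, were not called between the M1 groups, at 0.23, 0.98, 1.16 and -0.13. Mafk and Maff lay near the background, with intensities before scaling of 5.3 to 15.3 and 8.9 to 28.4 on the M1 arrays. Activation lowered 3 of the 10 in WT cells (Cul3, Rbx1 and Mafg) and raised 0, and in iNOS-/- cells it raised 6 and lowered 2, where 36.5% and 51.6% of all genes were called. The latter split became 1 higher and 2 lower after quantile normalization and 3 and 2 after neqc. After quantile normalization only Keap1 was called higher and Bach1 lower between the M1 groups, with Rbx1 and Cul3 at 0.26 and 0.27 (adjusted p = 0.0673 and 0.0633) and Nfe2l1 at 0.07. After neqc 5 were higher and 1 lower, with Rbx1 and Cul3 at 0.26 and 0.27 and called (adjusted p = 0.0457 and 0.0409).

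A list of 28 further NRF2 targets was also read by the brightest probe of each gene alone. Dimmer probes, such as those of Esd (4 probes in all) and of Txn1, Gstp1, Gstm2 and Tkt (3 each), were not examined. Of these 28 genes, 26 were matched to a probe and 23 were tested. In iNOS-/- M1 against WT M1 cells 4 were higher and 9 lower, beside 50.2% of all genes called. Their median difference was -0.23, against 0.01 over all genes, and it was -0.55 after quantile normalization, with 2 higher and 13 lower, and -0.50 after neqc, with 4 and 13. The higher ones were Txn1 (1.74, adjusted p = 0.000762), which encodes thioredoxin, the substrate of thioredoxin reductase, the NADPH-forming malic enzyme Me1 (1.03), the esterase Esd (0.75) and the biliverdin reductase Blvrb (0.40). Me1 lay near the background, with intensities before scaling of 8.9 to 23.5 over the 8 arrays. Txn1 measured 9.74 and 9.64 in WT unstimulated, 8.63 and 8.68 in WT M1, 8.87 and 9.25 in iNOS-/- unstimulated and 10.49 and 10.30 in iNOS-/- M1. It fell by 1.04 on the log2 scale in WT cells and rose by 1.33 in iNOS-/- cells, or by 0.88 and 0.86 after quantile normalization and neqc (difference with the main scaling 2.37, adjusted p = 0.00126). The lower ones were the haem transporter Slc48a1 (-1.78), the epoxide hydrolase Ephx1 (-1.60), the carbonyl reductase Cbr1 (-1.23), Osgin1 (-1.23), catalase (Cat, -0.71), the glutathione transferases Gstp1 (-0.68) and Mgst1 (-0.59), and the pentose phosphate enzymes G6pdx (-0.46) and Tkt (-0.37). Ephx1 was at 9.27 and 9.35, 8.62 and 8.51, 7.93 and 7.92, and 6.91 and 7.03 in the same order of groups, without overlap. Of the ferritin chains, Fth1 differed by -0.04 between the M1 groups (adjusted p = 0.749). Its intensity before scaling was 18891 to 20392 on all 8 arrays, so its log2 differences between groups mostly follow the scale factors. Ftl1 lay near the background and was not called. It was detected on 3 arrays, those of WT unstimulated and replicate 1 of WT M1. Its intensity before scaling was only -2.2 to 14.7 over the 8 arrays. Replicate 1 of WT M1, at 7.6, counted as detected, and replicate 2 of iNOS-/- unstimulated, at 5.4, did not. With values this close to the threshold, the arrays on which Ftl1 was detected do not show a difference between the genotypes. Before activation 10 of the 23 were lower in iNOS-/- cells and 0 higher, where 17.0% of all genes were called lower and 17.1% higher. Among them were Mgst1 (-1.55), Ephx1 (-1.39), Gstm2 (-1.25) and Gstm1 (-0.99). Activation of WT cells lowered 12 and raised 3 (16.2% and 20.2% of all genes), and activation of iNOS-/- cells lowered 7 and raised 5 (25.2% and 26.4% of all genes), a split that became 13 lower and 2 higher after quantile normalization and 14 and 2 after neqc. Under both of these Blvrb was at -0.10 between the M1 groups and not called, Esd was at 0.29 (called after neqc alone), Tkt at -0.85 and -0.84 and Mgst1 at -0.92 and -0.90. neqc also brought Me1 to 0.62, Cbr1 to -0.76 and Osgin1 to -0.68, all still called.

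**Figure D5:**
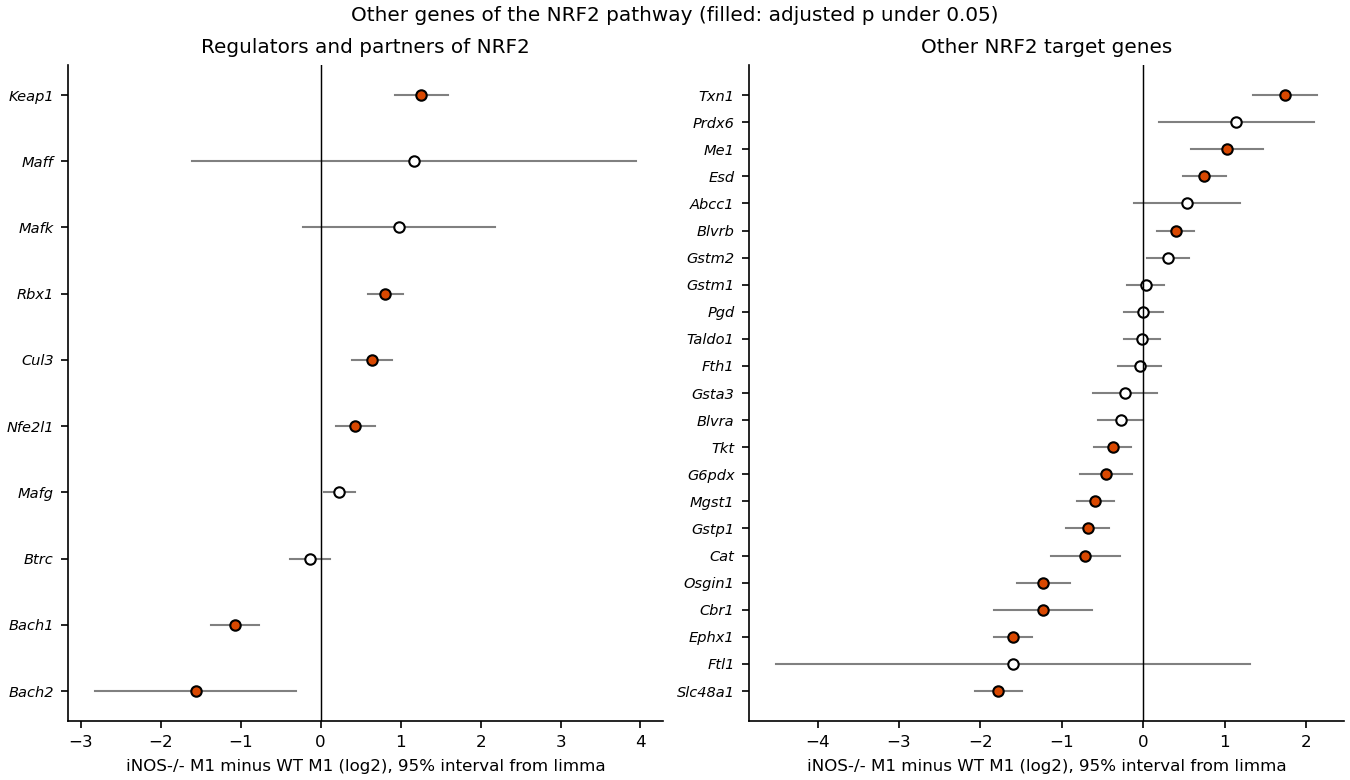
Difference of group means on the log2 scale (horizontal axis), iNOS-/- M1 minus WT M1, of the tested regulators and partners of NRF2 (left) and of the tested further NRF2 targets (right). Bars are 95% intervals from limma and filled points are called. Keap1 leads the regulators and Txn1 the targets, and more of the called targets lie below 0 than above it.

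The genes whose profile over the 8 arrays was most like that of Nfe2l2, measured as the root mean square difference of the centred log2 values among 9687 probes detected on all arrays, were Gnal1 (0.0684), Spata2 (0.0724) and Cggbp1 (0.0745), where the median over all probes was 0.516. For Hmox1 they were Pkd2 (0.161), Gaa (0.164) and 0610031J06Rik (0.170), with a median of 0.605. These values describe 8 arrays in 4 groups.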

How the data were processed

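Total RNA of 8 samples was hybridised to Illumina mouse bead arrays, which the labels name both as MouseRef-8 and as MouseWG-8. The authors deposited the intensity of each probe as the scanner software GenomeStudio wrote it, not normalized between arrays, and beside it the detection p-value. Their notes also name limma 3.14.4. The file header names no background subtraction, yet 25.2% to 27.2% of the intensities per array were below 0, so no background was subtracted here. All value columns matched a sample by title, and 0 were left out.

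Starting from these intensity values, arrays were scaled to their mean. Probes with stable ranks (differing from the rank in the mean by under a fraction of 0.05 of it, between 0.5 and 0.9 of all ranks) gave a slope by robust regression through the origin (MASS 7.3.60.0.1), by which the array was divided. The factors by which arrays were thereby multiplied (1 over the slope) were 0.839 to 1.35 and followed the treatment. They were 0.922 and 0.933 in WT unstimulated, 1.21 and 1.35 in WT M1, 0.881 and 0.839 in iNOS-/- unstimulated and 1.17 and 1.28 in iNOS-/- M1. Fewer probes gave the slope in iNOS-/- M1 (4773 and 4821) than on the other arrays (6089 to 7680). Values under 1 were set to 1 and log2 was taken. After the detection filter, 4 group means were fitted to all 8 arrays with limma 3.58.1 (R 4.3.3), with Benjamini-Hochberg adjustment over 13868 probes. The methods state this kind of normalization, 1 in place of negative values, log2 and limma. The details of the scaling were chosen here. The genes and lists were chosen with earlier results of these data known. The genes named are the 10 genes, Nos2, members of the lists of regulators, further targets and cell type markers, and the 3 genes closest in profile to Nfe2l2 and to Hmox1. Symbols are those of the array's design, updated through a RefSeq gene table for list genes.

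On simulated arrays with 200 changed probes between the M1 groups, 138 were called (69%) together with 22 unchanged ones among 16161 probes. In the simulated comparison of the unstimulated groups, which held no change, 9 were called. Far fewer probes were changed than the 50.2% of genes called between the M1 groups in the data. The simulation therefore cannot tell how the scaling and the threshold hold with so many changes. The number of arrays, 2 per group, limits the precision of each value. Alternatives were quantile normalization, neqc, a line with an intercept, a floor of 16, no or a stricter detection filter, a fit on 4 arrays, the replicate number as a block, an intensity trend, a 2-fold minimum and each array left out in turn.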

Additional observations from a re-analysis of the deposited data

Results flagged for a closer look

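For 8 of the 10 genes the response to LPS plus IFN-γ differed between the genotypes by limma's test of the difference itself, as it did for 43.6% of all tested genes. The response was larger in iNOS-/- cells for Nfe2l2 by 0.89, for Slc7a11 by 1.49, for Srxn1 by 0.99, for Txnrd1 by 1.73, for Prdx1 by 0.79 and for Sqstm1 by 1.60 on the log2 scale. The response in iNOS-/- cells minus that in WT cells was -1.25 for Nqo1 and -0.94 for Gclm. With the main scaling the unstimulated groups already differed for Nqo1, Srxn1, Prdx1 and Sqstm1. For these genes the difference in response therefore includes a difference before activation. For Srxn1 that was -0.73, while its difference between the M1 groups was 0.26 and not called (adjusted p = 0.0860). Nfe2l2 and Gclm differed by -0.31 and 0.32 before activation, which was not called. The Prdx1 difference between the unstimulated groups was no longer called in 10 of 17 alternative settings. After quantile normalization and neqc the difference in response came to 0.62 and 0.59 for Nfe2l2 and 0.96 and 0.95 for Slc7a11. It came to 0.60 and 0.59 for Srxn1 and 0.88 and 0.87 for Sqstm1, all still called. For Txnrd1 it was 1.81 and 1.58, for Nqo1 -1.08 and -0.89 and for Gclm -1.37 and -1.34, all called as well. The Prdx1 value came to 0.25 and was no longer called after quantile normalization (adjusted p = 0.158) or neqc (adjusted p = 0.149). The summed intensity of dendritic cell, granulocyte and dividing cell markers also differed between the groups, and its part in these differences was not tested.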

How the results depend on the processing

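Of 835 values of the 10 genes under alternative settings, 773 kept their side of the threshold without a change of sign (2 of them, of Gclc, came to exactly 0 with a floor of 16), 19 were no longer called, 26 became called and 17 changed sign. Of these, 15 were called with neither setting. The cause was not tested. The called one was the Prdx1 difference between the M1 groups, -0.0347 after quantile normalization and -0.0346 after neqc. The uncalled ones under the same 2 settings were the Hmox1 change in iNOS-/- cells (-0.0125 and -0.0113), the Srxn1 difference between the M1 groups (-0.0167 and -0.0164) and the Slc7a11 difference between the unstimulated groups (0.0756 and 0.073). The Gclc difference in response was 0.2553 after neqc, 0.7363 with an intercept and 0.1504 with a floor of 16. With each array left out in turn, uncalled values changed sign within -0.0181 to 0.237 for Nfe2l2 and -0.2872 to 2.6766 for Gclc in WT activation, -0.0688 to 0.32 for Hmox1 in iNOS-/- activation, -0.0926 to 0.065 for Slc7a11 between the unstimulated groups and -1.8846 to 1.0802 for the Gclc difference in response. Demanding a 2-fold change left 0 genes called after activation of WT cells, 4 after activation of iNOS-/- cells, 3 between the M1 groups, 1 between the unstimulated groups and 4 in the difference of responses, where 15.2%, 28.8%, 24.8%, 14.5% and 28.4% of all genes were called. An intensity trend called 5 in WT activation. With each array left out in turn these counts ran from 3 to 4, 6 to 7, 6 to 7, 3 to 5 and 8 to 9, and the low of 3 between the unstimulated groups came without either replicate of iNOS-/- unstimulated. Replicate numbers did not pair the arrays (correlations of deviations -0.034 to 0.027), and with the replicate block the counts were 3, 7, 7, 4 and 8. The share of called probes that were higher was 57.5% for WT activation against 47.4% after quantile normalization and 44.4% after neqc, and 52.8% for iNOS-/- activation against 41.9% and 43.3%. The line with an intercept moved the median of all probes between the M1 groups from 0.01 to 0.17. Between the M1 groups the regulators called were 4 higher and 2 lower, against 1 and 1 after quantile normalization, 5 and 1 after neqc or with an intensity trend and 6 and 1 with a floor of 16. The fit on 4 arrays gives no difference in response, and the chip as a block was not run, since column names give no chip. Near the background, as for Gclc, values are limited by signal.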
